A study of Mus musculus with 22 samples.

Results

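The genes encoding the ionotropic glutamate receptor subunits of the AMPA type (Gria1, Gria2, Gria3 and Gria4) and of the NMDA type (Grin1, Grin2a, Grin2b, Grin2c, Grin2d and Grin3a) were examined in mouse lumbar spinal cord. They were found by their symbols in the expression table, where all 10 were present among 17306 genes. All 10 also passed the filter on low values, a log2 CPM (reads on the gene scaled to library size, on a log2 scale) of at least -1 in 5 or more libraries, which left 16765 genes for testing. RNA came from L4-L6 cord of 22 C57BL6J wildtype mice aged 12 to 14 weeks at collection, male according to the methods, and the dissected tissue was the dorsal horn quadrant on the injected side. Every mouse, controls included, had received 1 mg of monoiodoacetate (MIA) in the knee joint, a chemical model of osteoarthritis pain. SAFit2, an inhibitor of the stress-related protein FKBP51, was given at 100 mg/kg in a slow-release phospholipid gel (VPG), and vehicle mice received the gel alone. The 6 Early Vehicle and 5 Early SAFit2 mice were treated around pain induction, on days -3 and 4, and the 6 Late Vehicle and 5 Late SAFit2 mice during established pain, on days 20 and 27. Tissue was taken on day 30. One protocol label gives the first early day as 3 and the series design as -3, and the titles of the Early SAFit2 mice read SAFit1 where their treatment label reads SAFit2. Early and late mice are also labelled as separate batches, so a difference in level between timings and a difference between batches cannot be told apart.

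Glutamate is the main fast excitatory transmitter of the spinal cord. AMPA receptors are tetramers that carry most of the fast synaptic current. The GluA2 subunit, encoded by Gria2, keeps calcium out of the channel once its transcript has been edited at the so-called Q/R site. NMDA receptors need GluN1 (Grin1) in every assembly, joined by GluN2 subunits (Grin2a to Grin2d) that bind glutamate and set the kinetics, or by GluN3A (Grin3a), which binds glycine. In the dorsal horn, NMDA receptor activity and the insertion of AMPA receptors are known for their part in central sensitisation, the lasting gain in pain signalling.

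The subunits share an ancestral channel, and the stretch of coding sequence below shows that kinship, with the bases marked that set the GC content of a coding sequence apart from its protein. It is the same 16 codons in each of the 6 subunits shown, in the membrane segment that lines the inner pore, taken from the GENCODE M21 transcripts (GRCm38, the build of the files). Capitals mark a G or C at the last position of a codon, where the base can often change without changing the protein.
Gria1: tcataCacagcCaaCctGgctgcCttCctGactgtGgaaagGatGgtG
Gria2: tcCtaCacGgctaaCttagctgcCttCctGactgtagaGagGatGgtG
Gria3: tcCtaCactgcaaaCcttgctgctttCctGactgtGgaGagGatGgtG
Gria4: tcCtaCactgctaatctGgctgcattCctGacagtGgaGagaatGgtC
Grin1: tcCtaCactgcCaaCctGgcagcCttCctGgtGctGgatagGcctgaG
Grin2c: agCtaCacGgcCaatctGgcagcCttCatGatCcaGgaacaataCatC
In Gria2 these bases lie on the minus strand at chr3:80702548-80702595 (exon 12), and in Grin1 on the minus strand at chr2:25297178-25297225 (exon 15). Within this conserved stretch the GC content of the 6 ran from 50.0% in Gria4 and Grin2c to 60.4% in Grin1.

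Over whole coding sequences the subunits parted. The share of last codon positions with G or C was 48.4% in Gria2, 49.1% in Gria3 and 47.1% in Gria4, against 71.3% in Grin1, 74.7% in Grin2c and 78.5% in Grin2d. Gria1 (63.9%), Grin2a (64.6%), Grin2b (67.5%) and Grin3a (58.9%) lay between. The longest transcripts, untranslated ends included, ranged from 36.8% GC in Gria2 through 39.8% in Gria3, 44.3% in Gria4, 44.8% in Grin2a, 45.7% in Grin2b, 48.5% in Gria1, 49.2% in Grin3a, 59.4% in Grin1 and 62.1% in Grin2c to 65.0% in Grin2d, where the median of the genes tested was 49.7%. The first 30 codons are shown for the 5 subunits that differed between the late groups, with the same use of capitals.
Gria2: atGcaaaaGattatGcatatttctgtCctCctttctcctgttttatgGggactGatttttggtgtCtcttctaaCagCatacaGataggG
Gria3: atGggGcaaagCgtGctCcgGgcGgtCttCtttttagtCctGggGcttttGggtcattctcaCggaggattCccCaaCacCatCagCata
Grin2b: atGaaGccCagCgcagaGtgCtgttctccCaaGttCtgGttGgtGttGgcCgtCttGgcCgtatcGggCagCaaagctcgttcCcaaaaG
Grin1: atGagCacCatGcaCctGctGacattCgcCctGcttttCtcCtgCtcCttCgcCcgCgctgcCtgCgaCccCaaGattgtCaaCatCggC
Grin2c: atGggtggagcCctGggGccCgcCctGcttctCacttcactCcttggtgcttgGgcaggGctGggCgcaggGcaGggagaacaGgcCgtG
GC made up 38.9% of these 90 bases in Gria2 (chr3:80801784-80802384, joined across exons 1 and 2), 54.4% in Gria3, 56.7% in Grin2b, 60.0% in Grin1 (chr2:25318797-25318886, exon 1) and 68.9% in Grin2c.

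The libraries held between 11352989 and 24433349 reads on genes, and no 2 libraries were identical. Marker genes checked the labelled tissue. The summed level of 6 neuronal markers was 3749 to 5275 CPM in every library, that of 5 oligodendrocyte markers 13875 to 31325 CPM, and 3 of 4 markers of peripheral sensory neurons (Scn10a, Scn11a and Trpv1) were not in the table while the other (Avil) stayed at or below 1.87 CPM. Motor neuron markers were present at 11.4 to 289 CPM, Schwann cell markers at 129 to 3936 CPM, and skeletal muscle markers at 183.9 and 132.5 CPM in Late SAFit2 replicates 3 and 5 against at most 7.8 CPM in the other 20 libraries. In each library the slope of log2 CPM on GC content, relative to the mean of all libraries, was taken as a measure of how strongly GC-rich transcripts were represented. It was 0.02 ± 0.18 (SD, n = 6) log2 units per 10 GC points in Early Vehicle, 0.07 ± 0.17 (n = 5) in Early SAFit2, 0.17 ± 0.33 (n = 6) in Late Vehicle and -0.295 ± 0.164 (n = 5) in Late SAFit2. Late Vehicle mice ranged from -0.32 to 0.49 and Late SAFit2 mice from -0.475 to -0.053, and Late Vehicle replicates 2 (-0.16) and 6 (-0.32) lay within the Late SAFit2 range.

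Per length, AMPA subunit transcripts and Grin1 were the abundant ones. Expressed as log2 CPM per kilobase of the longest transcript, over all 22 mice, Gria1 had 5.27 ± 0.21 (SD), Grin1 5.25 ± 0.56, Gria4 4.98 ± 0.27, Gria2 4.60 ± 0.39 and Gria3 4.23 ± 0.27. Gria1 and Grin1 did not differ beyond their spread. Gria3 lay above the next subunit in all 22 mice. Grin3a (1.36 ± 0.59), Grin2c (1.34 ± 0.54) and Grin2d (1.204 ± 0.82) formed a middle tier within each other's spread. Grin2b (-2.11 ± 0.55) and Grin2a (-2.44 ± 0.94) were lowest, and Grin2b was above Grin2a in 12 of 22 mice. The annotated transcript of Grin2b is 24060 bases long, mostly untranslated. Per kilobase of coding sequence the order at the top changed, with Gria2 first (6.57 ± 0.39), followed by Gria1 (6.29 ± 0.21), Gria4 (5.98 ± 0.27), Grin1 (5.82 ± 0.56) and Gria3 (5.19 ± 0.27), while Grin2b rose to 0.33 ± 0.55 and Grin2a to -0.71 ± 0.94 without leaving the last places. The low subunits rest on few reads. Grin2a had 6 to 164 reads in a library, Grin2b 28 to 233, Grin2d 38 to 610, Grin2c 50 to 556 and Grin3a 111 to 733, whereas Gria1 had 2060 to 6317 and Grin1 688 to 6640.

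As shares of the AMPA sum per length, Gria1 supplied 34.01% ± 4.91 (SD, n = 22), Gria4 27.7% ± 3.33, Gria2 21.7% ± 5.17 and Gria3 16.5% ± 2.45. Gria1 took 39.6% ± 3.51 in the 6 Late Vehicle mice (35.2% to 43.5%) and 32.2% ± 2.80 in the 5 Late SAFit2 mice (30.6% to 37.2%), and Gria2 17.6% ± 2.59 and 22.1% ± 4.19. Per kilobase of coding sequence the first place turned, with 34.9% ± 6.59 for Gria2 and 28.7% ± 4.93 for Gria1 over all mice, and Late Vehicle was then the only group in which Gria1 (34.4% ± 3.65) had a larger mean share than Gria2 (29.3% ± 3.66). Of the NMDA sum per kilobase of the longest transcript, Grin1 made up 82.3% ± 1.97 over all mice and no less than 78.5% in any. Grin3a followed with 5.91% ± 2.14, Grin2c with 5.55% ± 1.04 and Grin2d with 5.15% ± 1.22, and Grin2b and Grin2a stayed at or below 2.56% and 1.01% of the sum. Per kilobase of coding sequence those upper limits were 8.63% and 2.17%. The ratio of the AMPA to the NMDA sum, per kilobase of the longest transcript, was 2.84 ± 1.04 in Early Vehicle, 2.35 ± 0.72 in Early SAFit2, 1.97 ± 1.14 in Late Vehicle and 3.86 ± 1.37 in Late SAFit2 mice. Per kilobase of coding sequence the ratio was 4.61 ± 1.88, 3.70 ± 1.11, 3.03 ± 1.78 and 5.995 ± 2.24 in the same order of groups. These shares and ratios depend on the length used and were not tested.

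**Figure D1:**
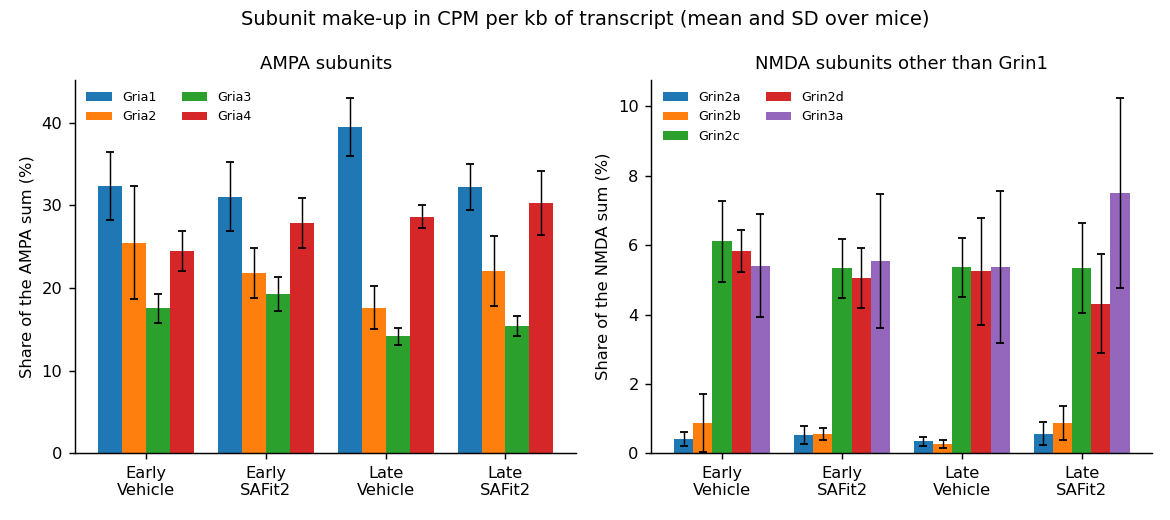
Share of each subunit in the AMPA sum (left) and of each subunit other than Grin1 in the NMDA sum (right), in CPM per kilobase of the longest transcript. Bars are group means over 5 or 6 mice and lines the SD. At this length Gria1 has the tallest AMPA bar in every group (by coding length Gria2 is the largest in 3 of the 4) and a higher one in Late Vehicle (39.6%) than in Late SAFit2 (32.2%), and Grin2a and Grin2b are the smallest NMDA shares throughout.

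The late comparison asks what SAFit2 did to transcript levels once the pain state was established. Of the 10 subunits, 5 passed an adjusted p under 0.05 with a change of at least 1.2-fold, where 12.1% of all genes tested did. Late SAFit2 mice had more Gria2, Gria3 and Grin2b than their vehicle controls (5.33% of all genes were called higher), and less Grin1 and Grin2c (6.72% were called lower). In whole tissue, fewer cells of a type and less RNA per cell cannot be told apart. At a nominal p under 0.05, 7 of the 10 passed, against 34.5% of all genes.

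Gria2, the subunit that limits calcium entry, had a lowest, median and highest log2 CPM of 7.24, 7.48 and 8.20 in the 6 Late Vehicle mice. The 5 Late SAFit2 mice had 8.03, 7.94, 7.79, 8.39 and 8.65. All 5 were above the vehicle mean, but Late Vehicle replicates 2 (7.84) and 6 (8.20) reached into the treated range. The group means were 7.60 ± 0.35 and 8.16 ± 0.35 (SD), a log2 fold change of 0.56 ± 0.18 (SE), or 1.47-fold (limma, adjusted p = 0.046, exact permutation p = 0.032).

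Gria3, another pore-forming AMPA subunit, ran from 6.14 through a median of 6.28 to 6.50 in Late Vehicle mice. The Late SAFit2 values were 6.43, 6.77, 6.57, 6.87 and 6.69, and 4 of the 5 were above every vehicle mouse. Its log2 fold change was 0.36 ± 0.12, or 1.28-fold (limma, adjusted p = 0.045, exact permutation p = 0.011).

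Gria4 and Gria1 did not pass. Gria4, a subunit with fast kinetics, had 7.09, 7.36 and 7.73 (lowest, median, highest) in Late Vehicle and 7.49, 7.87, 7.80, 7.71 and 7.62 in Late SAFit2 mice. All treated mice lay above the vehicle mean and the ranges overlapped, with a difference of 0.31 ± 0.13 (limma, adjusted p = 0.087, exact permutation p = 0.035). Gria1, the subunit known for activity-dependent insertion, had 7.76, 7.83 and 8.02 in Late Vehicle and 7.94, 7.75, 7.67, 7.88 and 7.85 in Late SAFit2 mice. Its difference was -0.06, with a 95% interval from -0.30 to 0.19.

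Grin1, the obligatory NMDA subunit, had 6.82, 8.03 and 8.33 (lowest, median, highest) in Late Vehicle mice. The Late SAFit2 values were 7.53, 6.80, 7.11, 6.83 and 6.27, all below the vehicle mean. Late Vehicle replicates 2 (7.28) and 6 (6.82) again lay within the treated range, apart from the other 4 vehicle mice, which started at 7.92. The log2 fold change was -0.87 ± 0.25 (limma, adjusted p = 0.037, exact permutation p = 0.035).

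Among the GluN2 subunits, Grin2b was the one whose late groups did not overlap. Grin2b, which encodes a subunit with slow decay that dominates early in development, had 1.23, 2.10 and 2.34 in Late Vehicle mice. The Late SAFit2 values were 2.66, 2.68, 2.34, 2.66 and 3.25, each above every vehicle mouse. The margin was thin, since the lowest treated mouse (2.343, 92 reads) and the highest vehicle mouse (2.338, 86 reads) were nearly equal, and groups did not overlap for 1.71% of all genes. The log2 fold change was 0.80 ± 0.25, or 1.74-fold (limma, adjusted p = 0.044, exact permutation p = 0.0043). At 28 to 112 reads per late library, its values carry more counting error than those of the AMPA subunits.

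Grin2c, which is known from cerebellar granule cells and astrocytes, had 3.29, 4.09 and 4.61 in Late Vehicle and 3.77, 3.16, 3.60, 2.36 and 2.85 in Late SAFit2 mice. Of the 5 treated mice, 3 were below every vehicle mouse, and the log2 fold change was -0.86 ± 0.26 (limma, adjusted p = 0.039, exact permutation p = 0.048). Grin2d, a subunit with very slow decay, spread most among the Late Vehicle mice, with 2.22, 4.41 and 5.15 in Late Vehicle and 3.76, 2.98, 3.13, 1.97 and 2.95 in Late SAFit2 mice. Its difference of -1.12 ± 0.39 missed the threshold (limma, adjusted p = 0.056, exact permutation p = 0.065), and Late Vehicle replicate 6 was lower than 4 of the 5 treated mice. Grin2a, the main GluN2 subunit of the adult forebrain, differed by -0.24 with a 95% interval from -1.25 to 0.76, and Grin3a by -0.33 with one from -0.97 to 0.32. The overlapping genes Grin1os and Gm45441 run antisense to Grin1 and Grin2d, Kdelr1 overlaps Grin2d on the other strand, Gm14330 and Gm26653 run antisense to Grin2b, and Ppp3r2 lies within Grin3a on the same strand. Whether the counting used strand was not given in the sources used here, so reads of these partners could be shared.

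**Figure D2:**
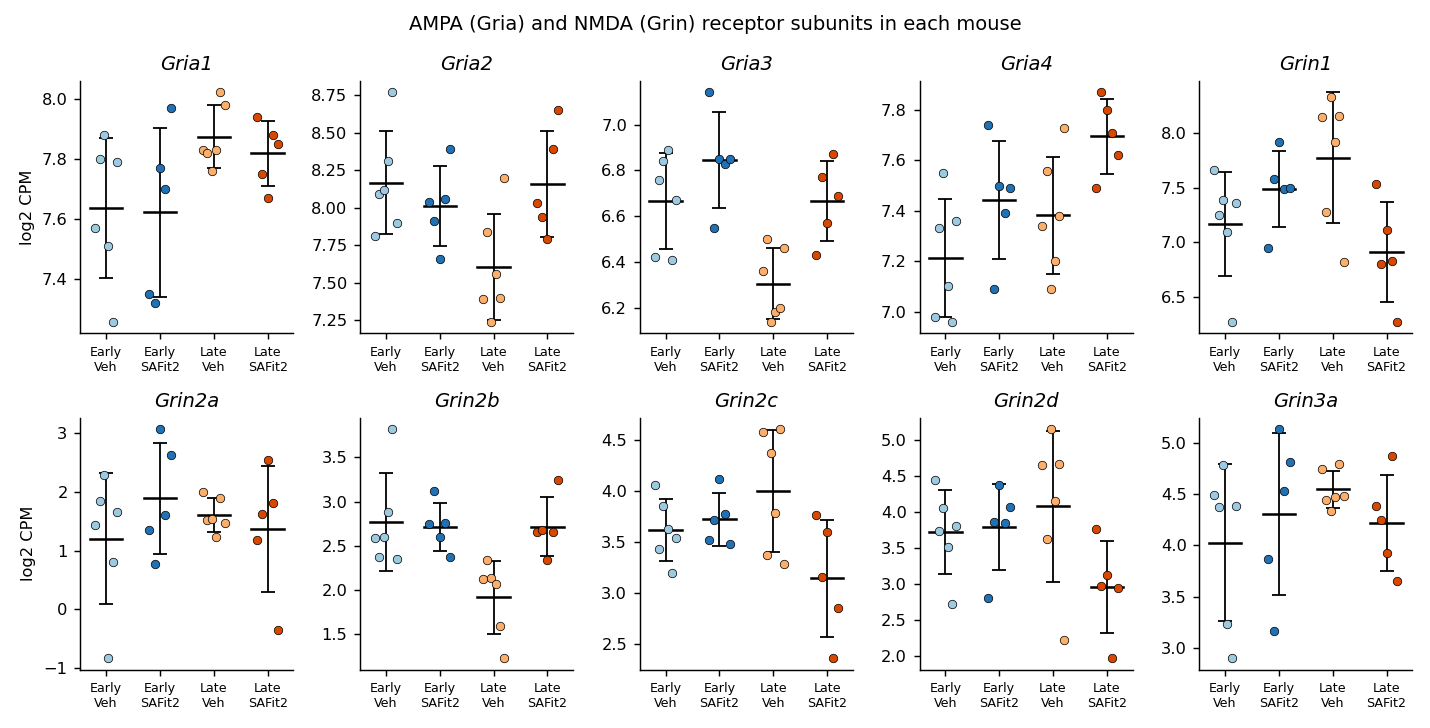
Deposited log2 CPM of the 10 subunits (y axis, own range in each panel) in each of the 22 mice, by group (x axis). Points are mice, horizontal lines group means and vertical lines the SD. In Grin2b the lowest Late SAFit2 mouse (2.343) sits just above the highest Late Vehicle mouse (2.338), and 2 Late Vehicle mice lie apart from the other 4 in Gria2, Grin1 and Grin2d.

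The late calls were close to the threshold, and so were those over all genes. Without any one of 7 late libraries, 1 to 8 genes of the 16765 were called, where 2021 were with all libraries and 4971 without Late Vehicle replicate 6. The number of subunits called was 0 without Late Vehicle replicate 1, 3, 4 or 5 or Late SAFit2 replicate 2, 4 or 5, with adjusted p-values of the 5 subunits up to 0.131 (Gria2), and 0 when only the 11 late mice were fitted (0 of all genes), with adjusted p = 0.069 for Grin1 and Gria3, 0.072 for Gria2 and Grin2b and 0.079 for Grin2c. It was also 0 without the variance trend (62 of all genes), and 1 (Grin1) with limma voom on the recovered reads (876 of all genes). It was 2 without Early Vehicle replicate 2 or Early SAFit2 replicate 4, 3 without Early Vehicle replicate 3 or 6 or Early SAFit2 replicate 5, which enter only through the shared variance, and 7 without Late Vehicle replicate 6, when Gria4 (0.38) and Grin2d (-1.49) also passed.

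For most subunits the direction of the late difference followed the GC content of the transcript. The AMPA subunits Gria2, Gria3 and Gria4, with 36.8% to 44.3% GC, were the higher ones, and Grin1, Grin2c and Grin2d, with 59.4% to 65.0% GC, the lower ones. Across the 10 subunits, which share the same libraries, Pearson's r between the late log2 fold change and GC content was -0.90, and across 16213 genes of the table it was -0.61. Genes with 35% to 40% GC (n = 910) had a median late log2 fold change of 0.45 with quartiles of 0.28 and 0.60, a range that held Gria2 (0.56) and Gria3 (0.36). For genes with 60% to 65% GC (n = 674) the median was -0.63 with quartiles of -0.82 and -0.45, and Grin2c (-0.86) and Grin2d (-1.12) lay below them. Grin1 (-0.87) was below the lower quartile of -0.62 for genes with 55% to 60% GC (n = 2937). Grin2b (0.80) lay far above the upper quartile of 0.24 for genes with 45% to 50% GC (n = 4211). Grin3a (-0.33) was below the lower quartile of -0.117 for the same genes. Grin2a (-0.24) went against its bin, where genes with 40% to 45% GC (n = 3162) had a median of 0.296 and a lower quartile of 0.125.

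After the trend of each library on GC content and length had been removed, none of the 10 subunits and none of the 16213 genes tested was called in the late comparison by limma, and 2610 genes had a nominal p under 0.05. At a nominal p under 0.05 by limma, Grin2b passed with a log2 fold change of 0.72 ± 0.28 (adjusted p = 0.20) and Grin1 with one of -0.28 ± 0.12 (adjusted p = 0.26). With 2610 of 16213 genes at that level, these passes among the 10 subunits were near the share over all genes. Of the others, none passed at that level, with 0.12 ± 0.14 for Gria2, 0.01 ± 0.10 for Gria3, 0.15 ± 0.09 for Gria4, -0.14 ± 0.16 for Grin2c and -0.26 ± 0.22 for Grin2d. This correction also removes any part of a treatment effect that runs with GC content, and the part of GC representation in the late differences was not tested beyond it.

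**Figure D3:**
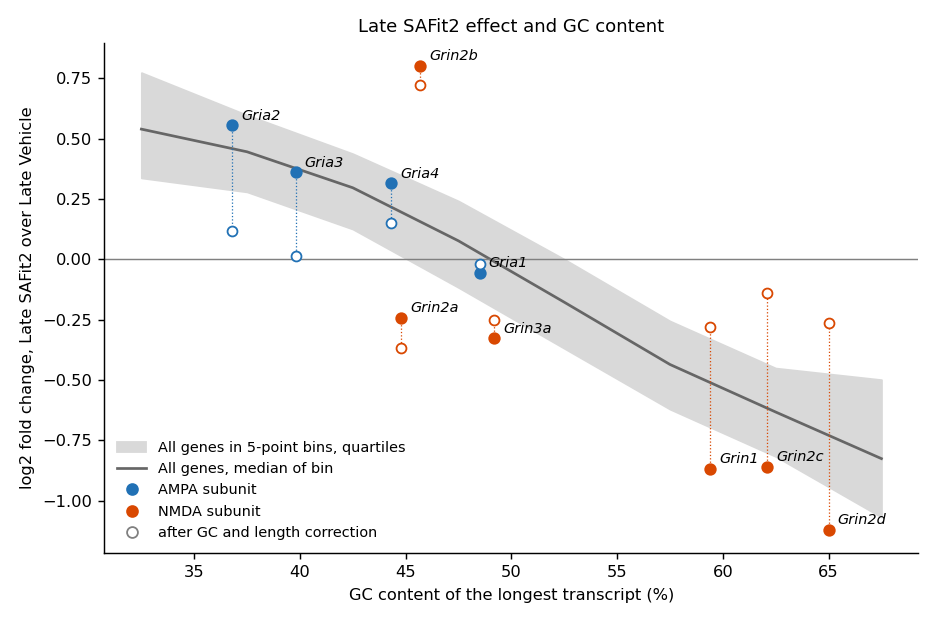
Late log2 fold change (y axis) against GC content of the longest transcript (x axis) for the 4 AMPA (blue) and 6 NMDA (orange) subunits, as deposited (filled) and after GC and length correction (open). The grey line and band are the median and quartiles of all genes in bins of 5 GC points. Gria2, Gria3 and Gria4 lie inside the band, and Grin2b (0.80) lies far above it before and after correction (0.72). The other NMDA subunits lie below it as deposited.

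The same relation was seen mouse by mouse. Over the residuals from the 4 group means (22 mice, all values from the same libraries as the slope), Pearson's r of a subunit with the GC slope was 0.91 for Grin1, 0.91 for Grin2d and 0.85 for Grin2c, and -0.81 for Gria2, -0.61 for Gria3 and -0.59 for Gria4. It was 0.04 for Gria1, 0.14 for Grin2a, 0.17 for Grin3a and -0.05 for Grin2b. Within the late mice, the 4 Late Vehicle libraries with a slope of 0.255 to 0.49 had the 4 lowest Gria2 and the 4 highest Grin1 values of all 11. Some marker sums also moved with the late groups. The neuronal sum was 3874 to 4754 CPM in Late Vehicle and 4641 to 5275 CPM in Late SAFit2 mice. Of its 6 markers 1 was called higher and none lower, and at a nominal p under 0.05 the markers disagreed, with 2 higher and 1 lower. The sum of inhibitory markers was 616 to 721 and 493.45 to 648 CPM (1 of 4 called lower), and that of oligodendrocyte precursor markers 203 to 399 and 205 to 283 CPM (1 of 4 called lower). Of 5 excitatory dorsal horn and 4 endothelial markers 1 each was called lower, and 2 of 5 microglial markers were higher at a nominal p under 0.05. At that level 1 excitatory marker was higher and 2 were lower. Over all genes 5.33% were called higher and 6.72% lower, and 34.5% had a nominal p under 0.05. The excitatory sum had a median of 510 CPM in Late Vehicle and 558 CPM in Late SAFit2 mice. After the GC and length correction the median log2 fold change was 0.014 for the excitatory and 0.001 for the neuronal markers, with none called. The 4 skeletal muscle markers had a median late log2 fold change of 2.81 (4 of 4 nominally higher, 1 called), and the 3 Schwann cell markers one of -1.70 (none nominal). Over the residuals, r with the precursor sum was 0.87 for Grin1 and -0.85 for Gria2, and r with the neuronal sum was -0.86 for Grin1 and 0.62 for Gria2. Their part in the subunit differences was not tested.

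**Figure D4:**
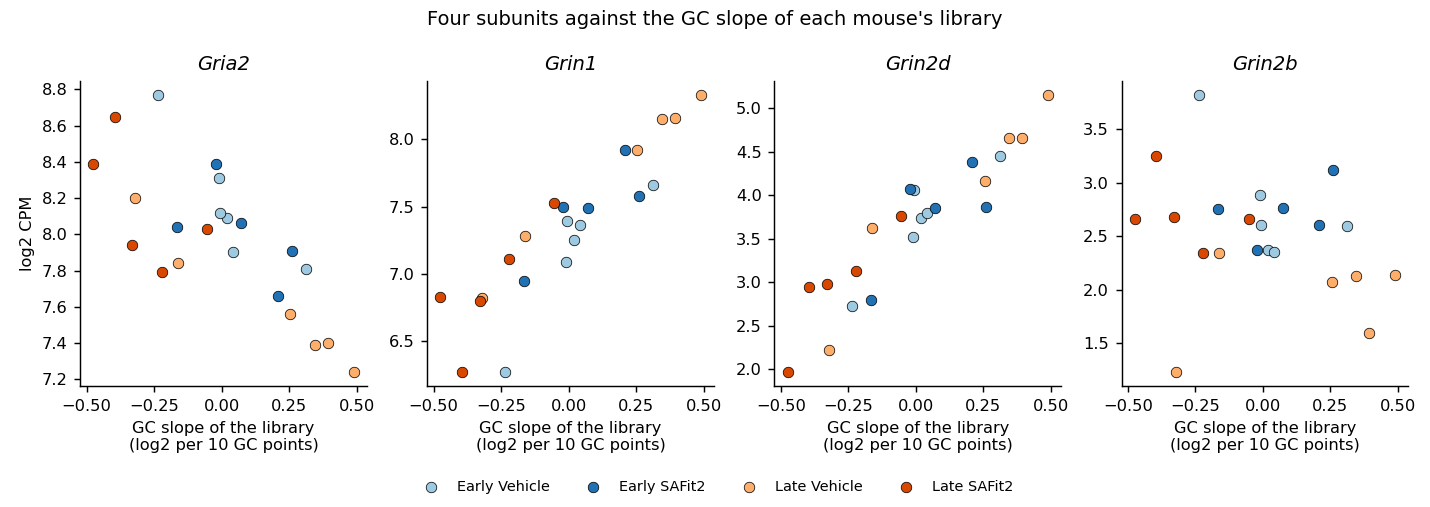
Log2 CPM (y axes) of Gria2, Grin1, Grin2d and Grin2b against the GC slope of the same library (x axis, log2 units per 10 GC points). Each point is 1 of the 22 mice, coloured by group. Gria2 falls and Grin1 and Grin2d rise with the slope across all groups, while Grin2b shows no such order.

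The early comparison asks what SAFit2 given around pain induction left behind at day 30. No subunit was called, and no gene of the 16765 was (0.0% of all genes), with limma. At a nominal p under 0.05, none of the 10 subunits and 2.48% of all genes passed, and limma voom on the recovered reads called none of the 10 either. The smallest nominal p was that of Gria4, which had 6.96, 7.21 and 7.55 (lowest, median, highest) in Early Vehicle and 7.74, 7.09, 7.50, 7.39 and 7.49 in Early SAFit2 mice. Its difference was 0.23 with a 95% interval from -0.03 to 0.49 (limma, nominal p = 0.085, exact permutation p = 0.15). For Gria1, Gria2 and Gria3 the differences were -0.01, -0.15 and 0.18, with intervals from -0.26 to 0.23, from -0.52 to 0.21 and from -0.06 to 0.42. For Grin1 the difference was 0.32 (-0.20 to 0.84), for Grin2b -0.05 (-0.57 to 0.47), for Grin2c 0.10 (-0.42 to 0.63), for Grin2d 0.08 (-0.73 to 0.89) and for Grin3a 0.28 (-0.37 to 0.92). The widest interval was that of Grin2a, the subunit with the fewest reads, at 0.68 (-0.32 to 1.69).

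The mean of the early and late effects averages both timings, and 1 timing alone can carry it. By the exploratory nominal p under 0.05, 4 of the 10 subunits passed, against 13.2% of all genes. On this average Gria3, Gria4 and Grin2b were higher with SAFit2 (6.03% of all genes) and Grin2c was lower (7.18%), and none passed after adjustment. Gria3 had a log2 fold change of 0.27 ± 0.08 (limma, nominal p = 0.0027, adjusted p = 0.33, exact permutation within timing p = 0.0041) and Gria4 of 0.27 ± 0.09 (nominal p = 0.0058, adjusted p = 0.33, exact permutation p = 0.0094). Both moved the same way at each timing, with 0.18 early and 0.36 late for Gria3 and 0.23 early and 0.31 late for Gria4. In each timing, 4 of 5 early and 5 of 5 late treated mice were above the vehicle mean for both genes. Both passed in all 22 fits that left out 1 library.

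Grin2b had a mean effect of 0.38 ± 0.18 (limma, nominal p = 0.044, exact permutation p = 0.074) and Grin2c one of -0.38 ± 0.18 (nominal p = 0.046, exact permutation p = 0.10). Both rest on the late mice. The early differences were -0.05 for Grin2b and 0.10 for Grin2c, beside 0.80 and -0.86 late. Grin2b lost its call in 13 of the 22 fits that left out 1 library (Early Vehicle 1, 2, 3 or 6, Early SAFit2 1, 2 or 4, Late Vehicle 5 or 6, Late SAFit2 1, 2, 4 or 5), with nominal p up to 0.094 without Late SAFit2 replicate 5. Grin2c lost it in 14 (Early Vehicle 1, 3, 4 or 6, Early SAFit2 1, 2, 4 or 5, Late Vehicle 1, 3 or 5, Late SAFit2 2, 4 or 5), with nominal p up to 0.12 without Late SAFit2 replicate 4. Without Early Vehicle replicate 5 the number that passed was 7, with Gria2 (0.26), Grin1 (-0.36) and Grin2d (-0.62) added, where 3019 of the 16765 genes passed. Limma voom passed Gria3 and Gria4 alone. After the GC and length correction Gria4 was the only one of the 10 left, with 0.19 ± 0.06 (limma, adjusted p = 0.45), and Gria3 had 0.11 ± 0.07 (adjusted p = 0.71). In that fit 1361 of 16213 genes passed for the mean, so 1 of 10 was near the share over all genes. In the early groups alone the corrected difference was 0.22 ± 0.09 for Gria4 and 0.20 ± 0.10 for Gria3, which passed at a nominal p under 0.05 but not after adjustment (limma, adjusted p = 0.98 for both). At that nominal level 732 of the 16213 genes passed. The mean effects of the remaining subunits were -0.03 for Gria1, 0.20 for Gria2, -0.27 for Grin1, 0.22 for Grin2a, -0.52 for Grin2d and -0.03 for Grin3a.

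**Figure D5:**
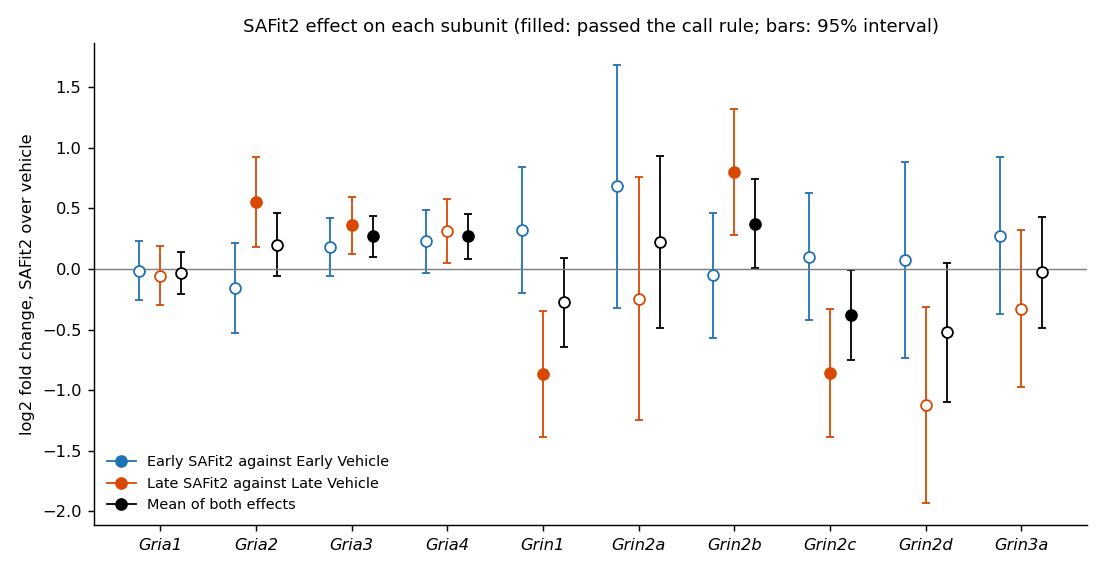
Log2 fold change of SAFit2 over vehicle (y axis) for each subunit (x axis) in early mice (blue), in late mice (orange) and as the mean of both (black), with 95% intervals. Filled points passed the call rule (adjusted p under 0.05 and 1.2-fold, or nominal p under 0.05 for the mean). Gria3 and Gria4 lie above 0 at both timings, no early point is filled, and Gria2, Gria3, Grin1, Grin2b and Grin2c are filled in late mice.

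Whether the effect depended on timing was tested with limma as the early minus the late effect, in which timing and batch cannot be told apart. The exact permutation p-values beside it permute treatment within timing and so assume no effect at either timing. They do not by themselves test whether the effects were equal. No subunit and no gene passed the adjusted threshold (0.0% of all genes), nor did any with limma voom, and at a nominal p under 0.05 limma passed 5 of the 10 subunits against 24.9% of all genes. Grin1 had a difference of 1.19 ± 0.36 (nominal p = 0.0027, adjusted p = 0.12, exact permutation p = 0.012), Grin2c of 0.96 ± 0.36 (nominal p = 0.013, exact permutation p = 0.035) and Grin2d of 1.197 ± 0.56 (nominal p = 0.041, exact permutation p = 0.091), so that their early effects lay above their late ones. Gria2 had -0.71 ± 0.25 (nominal p = 0.0097, exact permutation p = 0.026) and Grin2b -0.85 ± 0.36 (nominal p = 0.024, exact permutation p = 0.041). For Gria3 and Gria4 the differences between timings were -0.18 and -0.09, with 95% intervals from -0.52 to 0.16 and from -0.46 to 0.29. After the GC and length correction Grin1 was the only one under a nominal p of 0.05, with 0.50 ± 0.17 (limma, adjusted p = 0.32). At that level 1968 of 16213 genes passed in the same fit, so 1 of 10 subunits was near the share over all genes. Without Late Vehicle replicate 6, 4 of the 10 passed the adjusted threshold, as did 2513 of the 16765 genes.

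The vehicle groups differed from each other too. This comparison shares the Late Vehicle mice with the late comparison, so their values are given side by side and not as independent evidence, and timing of the gel and batch cannot be told apart in it. Gria2, Gria3 and Grin2b were lower in Late Vehicle than in Early Vehicle mice (3 of 10 subunits, against 9.11% of all genes, 5.82% lower and 3.29% higher), and none of the subunits was called higher. At a nominal p under 0.05, 5 of the 10 passed, against 24.3% of all genes. Grin2b had 2.35, 2.60 and 3.82 in Early Vehicle mice, above each of the 6 Late Vehicle mice, again by a thin margin (2.347 against 2.338). The 2 vehicle groups did not overlap for 4.92% of all genes. The log2 fold change of Late over Early Vehicle was -0.85 ± 0.24 (limma, adjusted p = 0.025, exact permutation p = 0.0022), beside 0.80 for Late SAFit2 over Late Vehicle.

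Gria2 had 7.81, 8.11 and 8.77 (lowest, median, highest) in Early Vehicle mice and a log2 fold change of -0.56 ± 0.17 (limma, adjusted p = 0.038, exact permutation p = 0.026), beside 0.56 in the late comparison. Gria3 had 6.41, 6.72 and 6.89 in Early Vehicle mice and -0.36 ± 0.11 (limma, adjusted p = 0.038, exact permutation p = 0.015), beside 0.36. For these 3 subunits the Early Vehicle mean (8.17, 6.67 and 2.77) was close to the Late SAFit2 mean (8.16, 6.67 and 2.72), and the Late Vehicle mean was the lowest of the 4 groups. Without Late Vehicle replicate 5 no subunit was called in this comparison, though 1088 of all genes were. Without Late Vehicle replicate 1, 3 or 4 or Early Vehicle replicate 2, 3, 4 or 5, 1 subunit was called, and 944 to 1485 of all genes. After the GC and length correction the calls were Gria1 (0.30 ± 0.09), Gria4 (0.29 ± 0.09) and Grin1 (0.53 ± 0.12), all higher in Late Vehicle mice, with adjusted p = 0.016, 0.016 and 0.0020, where 3012 of 16213 genes were called in the same fit.

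Within groups the subunits fell into sets that varied together from mouse to mouse. The r values here are over the residuals of 22 mice that share depth and composition within a library, and are descriptive. Grin1, Grin2c and Grin2d formed one set, with r of 0.88 between Grin1 and Grin2d, 0.83 between Grin2c and Grin2d and 0.80 between Grin1 and Grin2c. Gria2 ran opposite to them, with -0.85 against Grin1. Gria3 and Gria4 went together (0.78). Gria1 and Grin2a each went with Grin3a, with 0.81 between Gria1 and Grin3a and 0.75 between Grin2a and Grin3a, and less with each other (0.475). Grin2b ran opposite to these, with -0.65 against Gria1. Early Vehicle replicate 5 had the lowest Gria1 (7.26), Grin3a (2.90) and Grin1 (6.27) of its group and the highest Gria2 (8.77) and Grin2b (3.82). That library and Early Vehicle replicate 4 also had the highest oligodendrocyte marker sums of all, 31325 and 29793 CPM, and over the residuals r with that sum was -0.67 for Gria1, -0.64 for Grin2a, -0.72 for Grin3a and 0.55 for Grin2b.

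The gene most like each subunit in its residuals was Chrm3, a muscarinic acetylcholine receptor, for Gria1 (r = 0.88), Plppr4 for Gria2 (0.96), Inpp4b for Gria3 (0.93), Ric3, a chaperone of nicotinic receptors, for Gria4 (0.94), Crtc1, a coactivator of CREB, for Grin1 (0.98), the cadherin Cdh6 for Grin2a (0.90), Pelp1 for Grin2b (0.83), Scap, the escort protein of SREBP, for Grin2c (0.93), the synaptic adhesion gene Lrfn1 for Grin2d (0.97) and the protocadherin Pcdhgc5 for Grin3a (0.94). Each was the highest of all genes tested. The GC content of the partner was 56.5% for Crtc1, 59.1% for Scap and 63.5% for Lrfn1, and 45.2%, 39.0% and 45.0% for those of Gria2, Gria3 and Gria4. It was 57.3% for Pelp1, well above that of Grin2b (45.7%), 54.4% for Pcdhgc5, 50.2% for Chrm3 and 42.4% for Cdh6.

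Other genes of the glutamate synapse, in 7 lists of 92 genes of which 91 were in the table and tested, moved in both directions in the late comparison. There, 6 were called higher and 13 lower, against 5.33% higher and 6.72% lower of all genes, so that the higher count (6 of 91) was near the share over all genes. The median log2 fold change was -0.21 against -0.05 over all genes. These calls come from the same fit as those of the subunits, in which 1 to 8 of all genes were called without any one of 7 late libraries. After the GC and length correction none was called and the median was 0.02. The early comparison called none. In the mean of both effects 6 passed as higher and 11 as lower, against 6.03% and 7.18% of all genes, the higher count being near that share.

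AMPA auxiliary subunits and assembly factors gave 5 of 21 lower and none higher in the late comparison (6.72% and 5.33% of all genes), with a median of -0.31. The lowest p-values were those of Cacng4 (TARP γ4, -1.04 ± 0.22, limma adjusted p = 0.032), Shisa8 (-1.21 ± 0.33, adjusted p = 0.034) and Prrt1 (-1.15 ± 0.32, adjusted p = 0.035). In the mean of both effects Cacng2, which encodes stargazin, passed as higher (0.28 ± 0.13, limma), and Cacng4 (-0.45), Cnih2 (-0.49) and Prrt1 (-0.53) were among the 4 that passed as lower.

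Of 24 anchoring and trafficking genes, 4 were called higher and 3 lower, against 5.33% and 6.72% of all genes. Lin7a (0.63 ± 0.15), Lin7c (0.52 ± 0.15) and Dlg1 (SAP97, 0.34 ± 0.10) rose, and Dlg4, which encodes the postsynaptic scaffold PSD-95 (-0.52 ± 0.15), Pick1 (-0.51 ± 0.16) and the pentraxin receptor Nptxr (-1.93 ± 0.63) fell. Nptxr lay close to the filter on low values, with a log2 CPM of 1.06 ± 1.75 (SD) in Late Vehicle and -0.87 ± 0.36 in Late SAFit2 mice. Its large fold change rests on few reads. Among these, Dlg4, with 46.8% GC, kept its size after the GC and length correction (-0.57), whereas Lin7c, with 37.4% GC, went to 0.08. In the mean of both effects Lin7a passed as higher (0.23) and Kif17 (-0.37), a motor that carries NMDA receptors, Nptxr (-1.05) and Pick1 (-0.26) as lower.

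Of 21 kinases and phosphatases, 2 were called higher and 4 lower in the late comparison, against 5.33% and 6.72% of all genes, the higher count being near that share. Csnk2a1, a catalytic subunit of casein kinase II (0.41 ± 0.11), and Ppp3r1, the regulatory subunit of calcineurin (0.47 ± 0.14), rose. Src (-0.72 ± 0.19), Ephb2 (-0.76 ± 0.21) and Ppp1r9b, which encodes the spine protein spinophilin (-0.51 ± 0.15), fell, and the sign of Ppp1r9b turned after the GC and length correction (0.22). In the mean of both effects Csnk2a1 (0.22), Ppp3r1 (0.25) and Ppp3cb (0.20) passed as higher and Ppp1r9b (-0.24) and Ephb2 (-0.32) as lower.

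Of 9 genes for the co-agonists glycine and D-serine, 1 was called lower in the late comparison, near the 6.72% of all genes. It was Phgdh, the first enzyme of serine synthesis (-0.58 ± 0.15, limma adjusted p = 0.033). Phgdh also passed as lower in the mean (-0.32), where 7.18% of all genes did. None of the 3 RNA-editing genes (Adar, Adarb1 and Adarb2) was called. At a nominal p under 0.05 by limma 2 passed, both lower, where 34.5% of all genes passed in either direction. Of 10 tested genes for glutamate supply and uptake none was called in the late comparison, and Slc17a6, the vesicular glutamate transporter of dorsal horn excitatory neurons, passed in the mean (0.20 ± 0.09, limma).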

How the data were processed

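Per the methods and the submitters' processing notes, the authors trimmed reads (Trimmomatic), aligned them to mm10 (HISAT2), counted them per gene with featureCounts and scaled libraries by TMM (edgeR). The deposited values are log2 CPM, with a floor of -3.154 for genes at 0 reads. Worked back, 100.0% of values gave whole reads (tolerance 0.02), 11352989 to 24433349 per library. The median was 17894662 in Early Vehicle, 17390328 in Early SAFit2, 17314517 in Late Vehicle and 15326465 in Late SAFit2. For the subunits with many reads, precision rests mainly on how many mice each group holds. For Grin2a and Grin2b it also rests on their few reads. Groups came from the treatment and batch labels.

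The log2 CPM values of 16765 genes (at least -1 in 5 libraries) were fitted in limma 3.58.1 (R 4.3.3) with a mean per group, a variance trend and Benjamini-Hochberg adjustment over all genes. Calls needed an adjusted p under 0.05 and 1.2-fold, or, for the mean of both effects, a nominal p under 0.05, as in the study. Single genes were compared by two-sided exact permutation (462 assignments of 5 and 6 mice, 924 of 6 and 6, 213444 within timing). GC content and length of the longest GENCODE M21 transcript were matched for 96.5% of genes, and the correction took a loess trend (span 0.5) from each library. The fits were tested on simulated data. Alternatives were other filters, pseudocounts, weights, scaling, samples, a replicate block, the GC correction, limma voom and leaving out each library. All 10 subunits and up to 3 genes per list and direction were named. Some sequences and 1 list of genes are not reported here. The subunits and lists were chosen with earlier results of these data known. Labels do not say whether mice shared litters. Plots used Python 3.11.15 with pandas 2.3.3, numpy 2.4.6 and matplotlib 3.10.9.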

Additional observations from a re-analysis of the deposited data

Results flagged for a closer look

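Grin2b stood apart in 1 mouse. Early Vehicle replicate 5 had a log2 CPM of 3.82 where the other 5 mice of its group had 2.35 to 2.88, a gap of 0.639 of the group's range, above Dixon's critical value of 0.625. It was the only one of the 40 sets of values (10 subunits in 4 groups), and chance flags about 1 in 20.

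For 4 subunits the early minus the late effect had an exact permutation p under 0.05, with treatment permuted within timing. That permutation assumes no effect at either timing, so it does not by itself test whether the 2 effects were equal. Its share over all genes was not worked out. The early minus the late effect was -0.71 for Gria2 (exact permutation p = 0.026), 1.19 for Grin1 (p = 0.012), -0.85 for Grin2b (p = 0.041) and 0.96 for Grin2c (p = 0.035). With limma 24.9% of all genes had a nominal p under 0.05 and none passed after adjustment, with adjusted p = 0.12 for Gria2 and Grin1, 0.15 for Grin2b and 0.13 for Grin2c. After the GC and length correction the nominal p by limma was 0.0074 for Grin1, 0.053 for Grin2b, 0.16 for Gria2 and 0.63 for Grin2c.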

How the results depend on the processing

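Of 580 values and calls recomputed under other settings, 485 kept their direction and side of the threshold, 50 fell below it, 20 passed it and 25 changed sign. For leaving out 1 library the counts were 966, 94, 18 and 22 of 1100. Only results called in the main fit could fall below the threshold, and these made up 404 of all the recomputations. The rest were uncalled from the start, so the high counts that stayed the same are mostly theirs. Among the 404, 1 changed sign (Gria3 late, -0.0090 with the GC and length correction and the replicate block). Where a value moved, the cause was not tested.

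The late count of 5 subunits became 0 without the variance trend, 0 with only the mice of the 2 groups, 0 with the GC and length correction and 1 with limma voom. Over all genes the late calls in these fits were 62, 0, 0 and 876, where the main fit had 2021. The mean count of 4 became 7 with library quality weights, 1 with the GC and length correction (1361 of all genes) and 2 with limma voom (2166 of all genes). The count for early minus late of 0 became 4 with library weights. The vehicle count of 3 became 1 without the variance trend, 6 with library weights, 1 with median centring and 0 with only the vehicle mice. Over all genes the vehicle calls were 1360 without the trend, 2014 with median centring and 1204 with only the vehicle mice. With library weights the calls rose over all 16765 genes too. They numbered 6396 for the mean (2215 in the main fit), 5082 for early minus late (0) and 5067 for the vehicle comparison (1527). Leaving out 1 library gave 0 to 7 subunits late, 0 to 0 early, 2 to 7 for the mean, 0 to 4 for early minus late and 0 to 4 for the vehicle comparison.

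Replicate numbers did not pair the mice (r of deviations from -0.236 to 0.317, above 0.1 in 2 of 10 pairs). The replicate block gave 5 late calls (Grin2d gained, adjusted p = 0.026, and Grin2b lost, adjusted p = 0.0585), 0 early, 4 for the mean, 0 for early minus late and 2 for the vehicle comparison. Signs turned for early Gria1 (0.014) and Grin2d (-0.10) and mean Grin3a (0.0044). With the GC and length correction and the replicate block the late count was 0 and the mean count 1, and signs turned for late Gria1 (0.0051), early Grin2c (-0.039) and Grin2d (-0.18), mean Gria2 (-0.034) and Grin3a (0.015), and early minus late Gria1 (-0.032), Gria3 (0.19) and Gria4 (0.069).

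The GC and length correction alone turned early Grin2c (-0.030) and Grin2d (-0.089), mean Gria2 (-0.023) and early minus late Gria1 (-0.032), Gria3 (0.19) and Gria4 (0.069). Library weights turned late Grin2a (0.11), early Grin2b (0.19) and vehicle Gria4 (-0.051) and Grin2a (-0.087). Median centring turned mean Grin3a (1.78e-05) and early minus late Gria1 (-0.016), and limma voom early Grin2b (0.0047). Leaving out 1 library turned late Grin2a (-0.54 to 0.18), early Gria1 (-0.10 to 0.061), Grin2b (-0.15 to 0.16) and Grin2d (-0.12 to 0.32), mean Gria1 (-0.078 to 0.0029) and Grin3a (-0.14 to 0.12), and early minus late Gria1 (-0.045 to 0.12) and Gria4 (-0.16 to 0.0021).

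Depth limits Grin2a and Grin2b most, with as few as 6 and 28 reads in a library. With 5 or 6 mice per group, and replicates whose origin beyond separate mice the labels do not give, p-values measure the spread between these mice.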
